A study of Mus musculus with 6 samples.

Results

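The cholinergic transmitter machinery is the set of gene products with which a neuron makes, stores and clears acetylcholine (ACh). The 7 genes Chat, Slc18a3, Slc5a7, Ache, Bche, Prima1 and Colq were taken by symbol from the deposited gene table, with the entry of the highest FPKM (fragments mapped to a transcript, scaled to its length and to the library size) used for each symbol. Of these 7 genes, 6 had an entry among the 37261 entries with a symbol (41945 entries in all). Slc18a3 was not analysed here, since no entry could be matched to its symbol or its synonyms VAChT and VAT.

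RNA was sequenced from motor neurons (MNs) differentiated from 2 mouse embryonic stem cell (mESC) lines on the FVB/N background, with 3 samples per genotype. The Hb9 control line was SMN2+/+;mSmn+/+ (genotype wildtype in the labels) and the A2 SMA line was SMN2+/+;mSmn-/-, so that the human SMN2 transgene was present in both and mouse Smn1 was disrupted in A2 alone. Both lines also carried the HB9:eGFP reporter, in which the promoter of Hb9 (Mnx1) drives eGFP, and both were treated as embryoid bodies with 1 µM retinoic acid and 1 µM Smoothened agonist for 5 days before eGFP-positive live cells were sorted. Each genotype was represented by 1 mESC line, so that genotype and line cannot be told apart. The table gave 1 FPKM value per genotype, pooled over its 3 samples by the authors, and neither an SD nor a test between samples could be computed from it. The number of reads behind each value is unknown.

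ACh is made from choline and acetyl-CoA by choline acetyltransferase (Chat) and is loaded into synaptic vesicles by the vesicular ACh transporter (Slc18a3). Acetylcholinesterase (Ache) splits released ACh, and the choline is carried back into the terminal by the high-affinity choline transporter (Slc5a7). Butyrylcholinesterase (Bche) is a second, less selective esterase. Prima1 is a transmembrane protein that holds cholinesterase tetramers in neuronal membranes, and Colq is the collagen tail that fixes AChE in the basal lamina of the neuromuscular junction. Spinal and hindbrain MNs use ACh as their transmitter, and Chat and Slc18a3 are standard markers of a cholinergic neuron.

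Chat, Prima1, Bche and the entry of Ache were lower in A2 SMA MNs than in Hb9 control MNs, by 45.0-fold, 5.05-fold, 2.43-fold and 4.05-fold, and the entry of Colq differed by 1.18-fold. Of the 6 genes with an entry, 5 reached 1 FPKM in at least one genotype, and of these 5, 4 were at least 2-fold lower in A2 SMA MNs and 0 at least 2-fold higher. Over all 15548 entries with a symbol under the same limits (1 FPKM or more in either genotype, above 0 in both), 22.7% were at least 2-fold lower and 6.93% at least 2-fold higher. Chat and Prima1 reached 1 FPKM in Hb9 control MNs alone, so these 2 could enter the count only with a lower value in A2 SMA MNs. The median log2 ratio (A2 SMA over Hb9 control) of the 5 entries was -2.02, beside -0.30 over the 15548 entries (quartiles -0.91 and 0.19). When ratios were centred on that median, 16.6% of entries were at least 2-fold lower and 10.6% at least 2-fold higher, and 3 of the 5 entries remained at least 2-fold lower. In sorted cells measured in bulk, fewer cholinergic cells and less RNA per cell cannot be told apart.

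**Figure D1:**
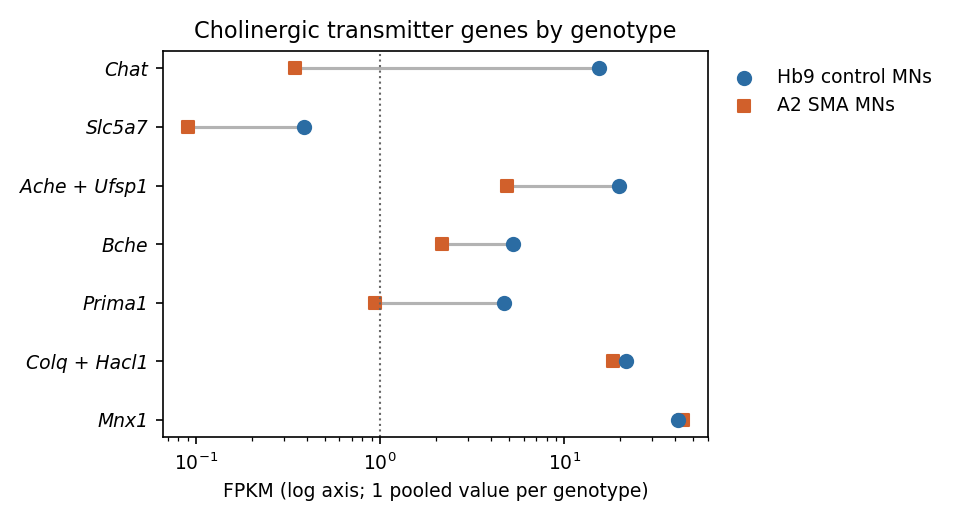
FPKM (log axis) of the 6 genes with an entry and of Mnx1 in Hb9 control MNs (circles) and A2 SMA MNs (squares), 1 pooled value per genotype with no error bar. Names joined by a plus sign mark an entry that covers both genes, and the dotted line stands at 1 FPKM. The gap is widest for Chat (15.5 and 0.344 FPKM) and narrowest for Colq + Hacl1 and Mnx1.

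The libraries first need to be described by the targeted gene and the sort marker. Smn1 was listed at 136.5 FPKM in controls against 5.26 FPKM in A2 SMA MNs, which is 3.86% of the control level. Mnx1, whose promoter drives the sorted reporter, was at 41.2 and 44.2 FPKM. Of 18 pan-neuronal marker genes with an entry, 16 were at least 2-fold lower in A2 SMA MNs. Among the 18, 2 reached 1 FPKM in Hb9 control MNs alone, so these could enter only with a lower value. The summed level of the 18 was 2134 FPKM in the control line and 325 FPKM in the A2 line. All 10 pluripotent cell markers were at least 2-fold higher, with sums of 305 and 1954 FPKM, and none of the markers of either list was at 0 in both genotypes. The part of these cell-state markers in the values of the cholinergic genes was not tested.

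Chat, the enzyme that makes ACh, was listed at 15.5 FPKM in the control and 0.344 FPKM in A2 SMA MNs, or 2.22% of the control level. The log2 ratio was -5.49, and -5.19 relative to the median entry. It was the lowest ratio among the genes of the set, and only 44 of the 15548 entries (0.283%) had a lower one. In Hb9 control MNs the level of Chat exceeded that of 78.3% of all entries with a symbol, and in A2 SMA MNs that of 55.4%. Because the A2 value lay under 1 FPKM, the size of the ratio depended on how low values were treated, and with 1 FPKM added to both values the log2 ratio was -3.62.

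The Chat entry spans chromosome 14, 33220634 to 33296725 (NCBI m37), and the same span was given for a second entry, Gm2990. In the GENCODE M21 annotation of GRCm38, Gm2990 is an antisense transcript whose gene shares 948 bases with the 5′ end of Chat, and Slc18a3 lies wholly inside Chat on the same strand, 1059 bases downstream of the Chat start. This nested layout, in which the vesicular transporter sits in an intron of the synthesising enzyme, is known as the cholinergic gene locus. Gm2990 starts 192 bases upstream of the Slc18a3 start and runs in the opposite direction, across the promoter of Chat. Gm2990, named here after its values were seen, was listed at 10.6 FPKM in controls against 0.433 FPKM in A2 SMA MNs, a 24.5-fold lower value (log2 ratio -4.61). The sense and the antisense entry of the locus therefore both lay in the lowest 1% of ratios, with 0.849% of entries below Gm2990. In GENCODE M21 the exons of Chat, Slc18a3 and Gm2990 share 0 bases with one another, but the libraries were made with the TruSeq RNA Sample Prep Kit, which does not mark strand, and reads from introns of one strand and exons of the other cannot be told apart without it. Where reads of Slc18a3 were counted was not tested. The flanking genes, also named after their values were seen, were less far apart between genotypes: Ercc6, a DNA repair gene, was at 8.46 and 6.62 FPKM (log2 ratio -0.36; status FAIL, given by Cuffdiff where its calculation for a locus failed), and 1700024G13Rik was at 1.43 and 0.595 FPKM (log2 ratio -1.26).

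**Figure D2:**
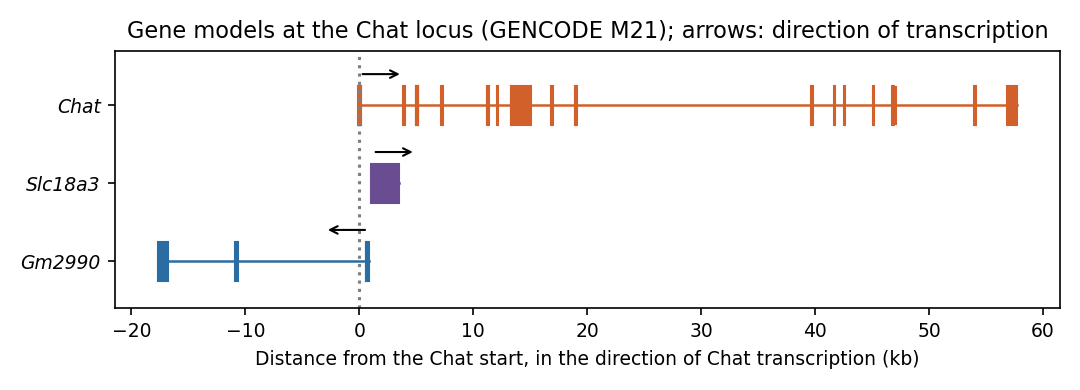
Gene models of Chat, Slc18a3 and Gm2990 in GENCODE M21 (GRCm38), drawn by distance in kb from the RefSeq start of Chat, positive in the direction of Chat transcription. Boxes are exons of any transcript, lines are introns and arrows give the direction of transcription. Slc18a3 lies downstream of the first exon of Chat and Gm2990 runs away from it over the Chat start.

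The promoter windows of the 2 nested genes are shown because the lowest ratio of the set, that of Chat, was measured at this locus and because Gm2990 starts inside the second window. Each window holds 250 bases before and 50 bases from the RefSeq start (GRCm38.p6), read 5′ to 3′ on the strand of the gene. The Chat window is chr14:32465860-32466159, minus strand, and the Slc18a3 window is chr14:32464801-32465100, minus strand. Capitals mark matches, on either strand, to 4 short motifs, namely TAATTA (the core of many homeodomain sites), the E-boxes CAGCTG and CATCTG, and GGGCGG (the GC box). All 300 bases of the Chat window lie inside the gene Gm2990.
Chat: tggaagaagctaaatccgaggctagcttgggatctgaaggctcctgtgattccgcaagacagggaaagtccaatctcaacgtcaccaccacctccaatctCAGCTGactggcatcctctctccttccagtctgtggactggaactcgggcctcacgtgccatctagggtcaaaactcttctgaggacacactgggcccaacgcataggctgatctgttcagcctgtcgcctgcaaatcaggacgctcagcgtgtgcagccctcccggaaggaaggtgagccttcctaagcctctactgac
Slc18a3: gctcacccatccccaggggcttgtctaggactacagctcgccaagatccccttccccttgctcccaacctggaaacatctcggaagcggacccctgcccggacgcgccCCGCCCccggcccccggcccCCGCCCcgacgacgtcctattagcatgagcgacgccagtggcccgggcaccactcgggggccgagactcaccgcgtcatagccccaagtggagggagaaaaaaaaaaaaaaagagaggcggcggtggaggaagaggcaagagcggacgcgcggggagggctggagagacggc
The Chat window held 1 CAGCTG, at position 101 of the window, and its GC content was 55.7%. The Slc18a3 window held 2 GC boxes, both on the opposite strand and therefore printed as CCGCCC, and its GC content was 67%. Of 32851 RefSeq promoter windows, 16.3% held CAGCTG and 35.7% held GGGCGG, and the median GC content was 52.7%. TAATTA was found in 5.29% of all windows and in 0 of the 6 windows of this gene set. These matches describe letters in a window and are not binding data.

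Slc5a7, which recovers choline for renewed synthesis, was low in both genotypes. Its entry (chromosome 17, 54412919 to 54438359, NCBI m37) was listed at 0.387 FPKM in the control line and 0.0900 FPKM in the A2 line. Both values lay under 1 FPKM and the status was NOTEST, so the gene entered no count. The log2 ratio of -2.10 is given only as the ratio of 2 low values, and it was -0.35 with 1 FPKM added to each. In Hb9 control MNs the level of Slc5a7 per length was thus far under that of Chat, although both belong to the same synthesis cycle.

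Ache was represented by an entry that also covers Ufsp1, a small protease gene that follows Ache on the same strand, so that its value is that of the joint locus (chromosome 5, 137728747 to 137736892, NCBI m37). The entry was listed at 19.7 FPKM in the control and 4.87 FPKM in A2 SMA MNs, or 24.7% of the control level (log2 ratio -2.02, and -1.72 relative to the median entry). The share of each gene in that value was not tested. Bche, alone in its locus (chromosome 3, 73439730 to 73512337, NCBI m37), was listed at 5.27 and 2.17 FPKM, or 41.2% of the control level (log2 ratio -1.28). Relative to the median entry the ratio of Bche was -0.98 and no longer reached 2-fold, as was also the case with 1 FPKM added to both values. The ratio of the Ache entry to Bche was 3.74 in Hb9 control MNs and 2.24 in A2 SMA MNs. Together the 2 esterase entries summed to 25.0 FPKM in controls against 7.04 FPKM in A2 SMA MNs, of which the joint Ache + Ufsp1 entry made up 78.9% and 69.2%. Both esterase entries were therefore closer to the bulk of entries than Chat, and 8.92% of all entries had a lower ratio than the Ache entry and 16.9% a lower ratio than Bche.

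Prima1, the neuronal anchor of both esterases, was alone in its locus (chromosome 12, 104432744 to 104480360, NCBI m37). It was listed at 4.72 FPKM in the control line and 0.935 FPKM in the A2 line, or 19.8% of the control level. Its log2 ratio was -2.34, and -2.04 relative to the median entry, with 6.89% of entries lower. With 1 FPKM added to both values the ratio was -1.56. The Ache entry was 4.18 times Prima1 in Hb9 control MNs and 5.21 times in A2 SMA MNs, so the log2 ratios of the Ache + Ufsp1 entry and Prima1 differed by 0.32. Chat, in contrast, was 0.785 times the Ache entry in Hb9 control MNs and 0.0707 times in A2 SMA MNs, a difference of -3.47 in log2. With 1 value per genotype these differences have no error.

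The windows of Ache (chr5:137288004-137288303, plus strand) and Prima1 (chr12:103242097-103242396, minus strand) are shown as those of the esterase and its neuronal anchor, with the same build, layout and capitals as for the Chat window.
Ache: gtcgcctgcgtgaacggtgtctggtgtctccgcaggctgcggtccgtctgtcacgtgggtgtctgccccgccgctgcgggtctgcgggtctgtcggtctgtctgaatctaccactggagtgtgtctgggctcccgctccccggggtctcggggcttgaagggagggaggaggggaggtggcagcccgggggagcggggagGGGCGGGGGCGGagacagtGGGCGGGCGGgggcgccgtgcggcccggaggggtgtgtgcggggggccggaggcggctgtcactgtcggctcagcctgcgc
Prima1: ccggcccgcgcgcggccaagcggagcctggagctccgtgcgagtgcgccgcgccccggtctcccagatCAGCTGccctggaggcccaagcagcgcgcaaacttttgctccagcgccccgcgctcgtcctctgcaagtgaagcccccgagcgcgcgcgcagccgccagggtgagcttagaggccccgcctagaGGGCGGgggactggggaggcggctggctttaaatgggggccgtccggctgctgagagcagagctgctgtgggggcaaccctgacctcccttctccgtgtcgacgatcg
Ache held 4 GC boxes, at positions 201, 207, 220 and 224 of the window, where the last 2 overlap, and its window had 74% GC. Prima1 held 1 GC box and 1 CAGCTG and had 71.7% GC. The windows not printed were those of Bche, with 2 overlapping GC boxes and 39.3% GC, and Slc5a7, with 1 CATCTG (17.2% of all windows) and 44.7% GC. A window was found for 6 of the 7 genes, all but Colq.

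Colq shared its entry with Hacl1, a peroxisomal lyase gene next to it on the same strand (chromosome 14, 32336268 to 32481765, NCBI m37). This joint entry was listed at 21.6 FPKM in the control and 18.2 FPKM in A2 SMA MNs (log2 ratio -0.24). The direction turned with scaling, and relative to the median entry the ratio was 0.05. How much of the value comes from Colq was not tested, and the entry gives no separate level for the collagen tail. The neighbour Btd, listed with the same span and named after its values were seen, was at 13.3 and 9.97 FPKM (log2 ratio -0.42). Muscle is a main source of Colq and, with nerve, of Ache, and 8 of the 10 skeletal and cardiac muscle markers with an entry lay under 1 FPKM in both genotypes. The sum over the 10 was 27.1 FPKM in controls against 29.9 FPKM in A2 SMA MNs, mostly Des (19.4 and 26.3 FPKM), an intermediate filament gene, and Actc1 (5.59 and 1.89 FPKM, at least 2-fold lower), cardiac actin. Red cells also carry AChE, and of 11 erythroid and megakaryocyte markers, 8 lay under 1 FPKM in both genotypes, and the sums over all 11 were 8.27 and 9.73 FPKM. Of the globins, named after their values were seen, Hba-a1 and Hba-a2 were listed at 0 in both genotypes, Hbb-bh1 at 0 and 0.746 FPKM, and Hbb-y at 0.0553 and 0.189 FPKM. The erythroid factor Gata1 was at 0.674 and 2.70 FPKM. Their part in the value of the Ache entry was not tested. Of 7 glial markers at 1 FPKM or more, 5 were at least 2-fold lower in A2 SMA MNs. Among the 7, 1 reached 1 FPKM in Hb9 control MNs alone, so it could enter only with a lower value. The sum over all 12 glial markers was 97.2 FPKM in the control line and 29.4 FPKM in the A2 line. The part of glial cells in the value of Bche, which glia also make, was not tested.

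In order of level, Hb9 control MNs had the Colq + Hacl1 entry first, then Ache + Ufsp1, Chat, Bche, Prima1 and Slc5a7. In A2 SMA MNs the order was Colq + Hacl1, Ache + Ufsp1, Bche, Prima1, Chat and Slc5a7, so Chat stood next after Ache in the first order and after Prima1 in the second. Without values of single samples it cannot be said which neighbours in this order differ beyond their spread, and the step between Bche and Prima1 in Hb9 control MNs (5.27 and 4.72 FPKM) was the smallest in FPKM within that genotype. Considering the 3 genes at 1 FPKM or more whose entry carries 1 symbol only (Chat, Bche and Prima1), all 3 were at least 2-fold lower, beside 22.8% of all entries with 1 symbol only, and 2 of the 3 (Chat and Prima1) had reached 1 FPKM in Hb9 control MNs alone.

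**Figure D3:**
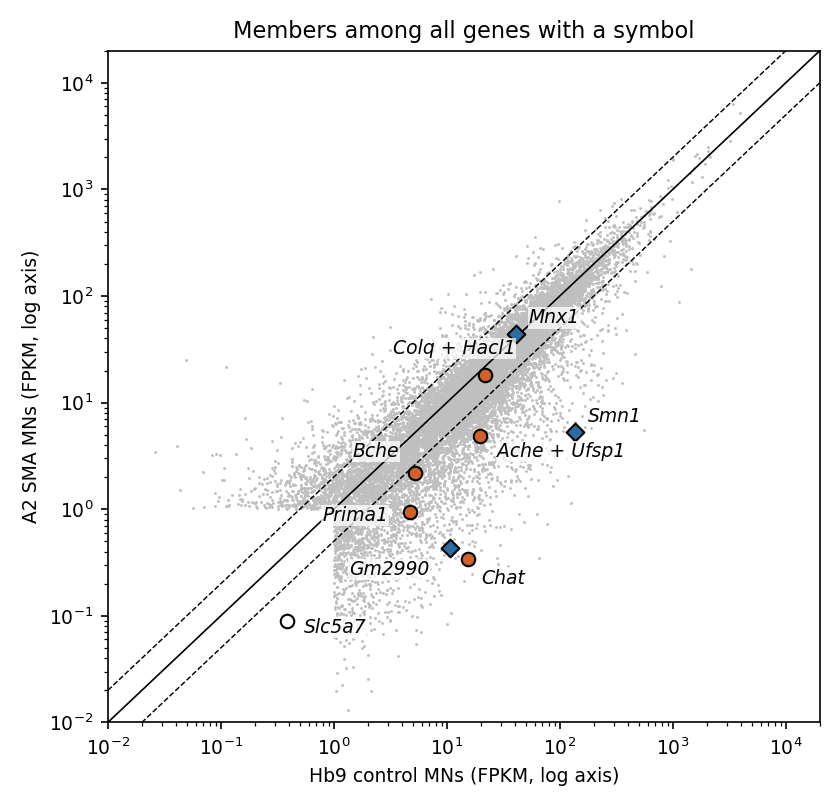
FPKM in A2 SMA MNs against Hb9 control MNs (both log axes) for the 15548 entries with a symbol at 1 FPKM or more in either genotype (grey), with the genes of the set as circles (open for Slc5a7, under 1 FPKM in both) and Gm2990, Mnx1 and Smn1 as diamonds. The solid line marks equal values and the dashed lines 2-fold. Chat and Gm2990 lie near the lower edge of the cloud, and Bche lies just below the lower dashed line.

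The genes whose pair of levels was most like that of each entry were found among all entries with a single symbol, by the distance in the plane of the 2 log2 FPKM values. This likeness rests on 2 values per gene. Nearest to Chat were Crp, an acute-phase protein gene (16.0 and 0.323 FPKM), the homeobox gene Nkx1-1 (13.6 and 0.337 FPKM) and Kcnk9, a leak potassium channel gene (12.6 and 0.364 FPKM). Nearest to the Ache entry were Zfp608, Igsf9b and Ano8, and nearest to Bche were Snx33, Gm10382 and Scara3. Prima1 lay closest to Gpr137c, Gm17569 and Ferd3l, and the Colq + Hacl1 entry to A630007B06Rik, Golga3 and Shprh. The distance to the third neighbour was 0.30 in log2 for Chat and at most 0.10 for the other entries, so Chat had the emptiest surroundings of the 5.

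The supply of substrate was also compared. Of 24 genes for choline uptake, choline use and acetyl-CoA supply, 23 had an entry and 20 reached 1 FPKM. Of these 20, 17 lay within 2-fold, 1 was at least 2-fold lower and 2 at least 2-fold higher, beside 22.7% and 6.93% of all entries. The 1 lower gene reached 1 FPKM in Hb9 control MNs alone, so it could enter only with a lower value. Relative to the median entry, 1 was at least 2-fold lower and 3 at least 2-fold higher. The median log2 ratio of the 20 genes was -0.24, beside -0.30 over all entries. Acly, which makes cytosolic acetyl-CoA from citrate, was the most abundant at 627 FPKM in the control and 368 FPKM in A2 SMA MNs (log2 ratio -0.77; status FAIL). The citrate exporter Slc25a1 was at 189 and 184 FPKM, and citrate synthase (Cs) at 145 and 99.2 FPKM (status FAIL). Slc25a1 was 0.04 lower in log2 as deposited and 0.26 higher relative to the median entry. The exceptions, named after their values were seen, were Slc44a5, a choline transporter-like gene, at 3.27 and 0.164 FPKM (log2 ratio -4.32), Slc44a4 of the same family at 1.95 and 5.38 FPKM (1.47), and Pcyt1b, a phosphatidylcholine synthesis enzyme, at 4.38 and 14.2 FPKM (1.69). The low ratio of Chat was thus not accompanied by a similar shift of the median of the supply genes.

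The 3 other partners of AChE that reached 1 FPKM were within 2-fold. P4hb, a protein disulphide isomerase subunit of collagen prolyl hydroxylase, was listed at 629 and 407 FPKM (log2 ratio -0.63). Dag1 (dystroglycan) was at 83.8 and 101 FPKM (status FAIL), and Hspg2 (perlecan) was at 56.2 and 54.8 FPKM (status FAIL). Hspg2 was 0.04 lower in log2 as deposited and 0.26 higher relative to the median entry. The median over these 3 genes likewise turned from -0.04 to 0.26. Musk, the muscle receptor kinase that also binds Colq and is named after its values were seen, was under 1 FPKM in both genotypes. Of 4 genes for proteins that share the cholinesterase-like domain without its activity, 2 reached 1 FPKM and both were at least 2-fold lower (1 relative to the median entry). Nlgn2, a postsynaptic adhesion gene, was at 103 and 31.7 FPKM (log2 ratio -1.70), Nlgn3 shared its entry with Med12 (59.8 and 26.6 FPKM, -1.17, and -0.87 relative to the median entry), and Nlgn1 was under 1 FPKM.

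Receptors for ACh were compared by subunit. Of 16 nicotinic subunit genes, 8 reached 1 FPKM, and of these 6 were at least 2-fold lower in A2 SMA MNs and 1 at least 2-fold higher. The median log2 ratio of the 8 was -3.46, and the summed level of the list was 170 FPKM in controls against 25.2 FPKM in A2 SMA MNs. Chrna4, the alpha subunit of the main high-affinity receptor of brain, was at 52.2 and 2.46 FPKM (log2 ratio -4.41). Chrna3 and Chrnb4, which form the ganglionic receptor and lie in a gene cluster with Chrna5, were at 47.4 and 2.51 FPKM and at 26.3 and 2.47 FPKM (log2 ratios -4.24 and -3.41). The other 5, named after their values were seen, were Chrna5 (14.2 and 1.25 FPKM), Chrnb2, the partner of Chrna4 (11.1 and 0.847 FPKM; status FAIL), Chrna7, which forms homomers (9.64 and 3.22 FPKM), the muscle-type subunit Chrnb1 (7.10 and 8.65 FPKM) and the hair cell subunit Chrna9 (0.813 and 2.30 FPKM). As deposited, the neuronal heteromeric subunits were thus lower by amounts between those of the Ache entry and Chat, and Chrnb1 lay within 2-fold. Their order relative to Chat depends on its low A2 value (0.344 FPKM). It was not tested with 1 FPKM added, where the log2 ratio of Chat was -3.62. Chrnb2 reached 1 FPKM in Hb9 control MNs alone and Chrna9 in A2 SMA MNs alone, so each could enter the count in 1 direction only. The muscle subunits Chrna1, Chrnd, Chrne and Chrng, also named after their values were seen, all lay under 1 FPKM in both genotypes.

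Genes that assemble or tune nicotinic receptors were compared next. Of 10 such genes, 9 reached 1 FPKM, with 7 at least 2-fold lower and 1 at least 2-fold higher (median log2 ratio -1.35). Relative to the median entry, 6 were at least 2-fold lower. Of the 9, 2 reached 1 FPKM in Hb9 control MNs alone and 1 in A2 SMA MNs alone. Ly6h, a membrane-anchored Ly6 protein, was at 137 FPKM in the control line and 6.61 FPKM in the A2 line (log2 ratio -4.37), Ly6e of the same family was at 72.9 and 28.6 FPKM (-1.35), and Unc50, a receptor trafficking gene, was at 66.9 and 50.3 FPKM (-0.41; status FAIL). Rapsn, which clusters muscle-type receptors, was the 1 higher gene, at 0.663 and 2.88 FPKM, and was named after its values were seen. Of 5 muscarinic receptor genes only Chrm4 (3.72 and 1.18 FPKM, log2 ratio -1.66, status FAIL) and Chrm3 (0.516 and 1.69 FPKM, 1.71) reached 1 FPKM, and these 2 lay in opposite directions. Chrm3 reached 1 FPKM in A2 SMA MNs alone, so it could enter only with a higher value.

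**Figure D4:**
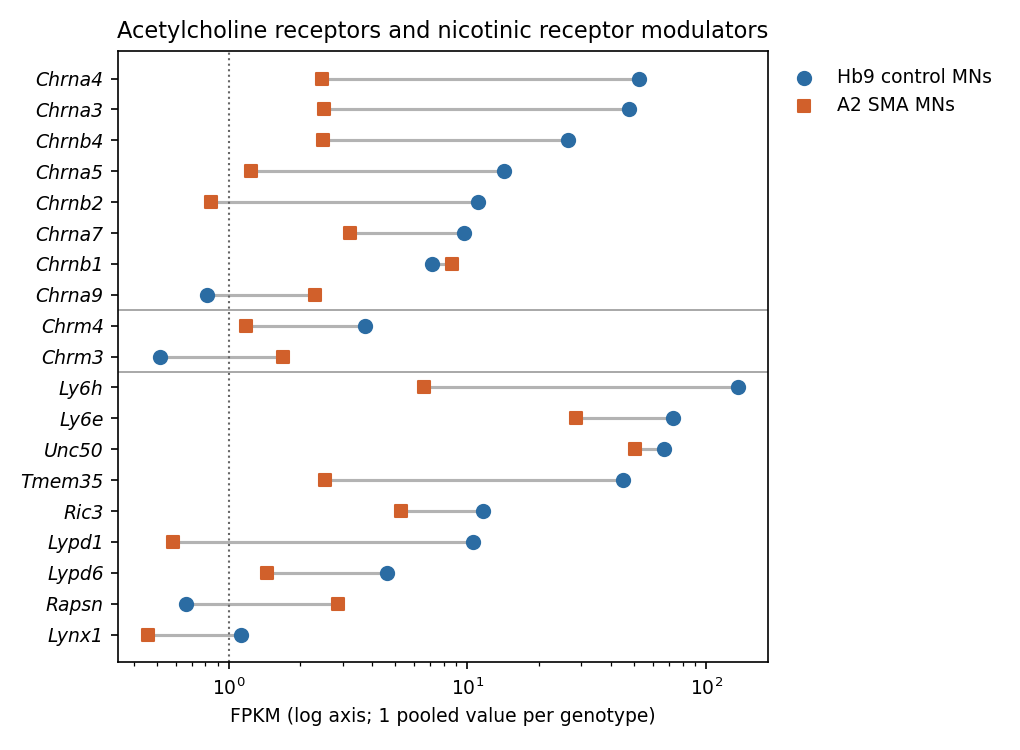
FPKM (log axis) in Hb9 control MNs (circles) and A2 SMA MNs (squares) of receptor genes at 1 FPKM or more in either genotype, 1 pooled value each with no error bar. From top to bottom the blocks are nicotinic subunits, muscarinic receptors and nicotinic receptor modulators, and the dotted line stands at 1 FPKM. The top 6 subunits lie to the left in A2 SMA MNs, while Chrnb1, Chrna9, Chrm3 and Rapsn lie to the right.

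Transcription factors linked to cholinergic neurons, listed together with cofactors and a repressor, were compared in the same way. Of 20 genes, 18 reached 1 FPKM, with 14 at least 2-fold lower, 1 at least 2-fold higher and a median log2 ratio of -2.86. Of the 18, 5 reached 1 FPKM in Hb9 control MNs alone and could enter only with a lower value. Isl1, a LIM homeodomain factor that acts with Lhx3 in MNs, was at 108 FPKM in the control and 5.95 FPKM in A2 SMA MNs (log2 ratio -4.18). The LIM cofactor Ldb1 was at 178 and 108 FPKM (-0.72; status FAIL). Mnx1, already given, had a log2 ratio of 0.10 and was among the 3 factors within 2-fold. Lhx3 and Rest were named after their values were seen. Lhx3, at 27.6 and 0.348 FPKM (-6.31), had a lower ratio than Chat. Rest, a repressor of neuronal genes, was the 1 higher factor, at 16.1 and 41.4 FPKM (1.37; status FAIL).

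Genes of other transmitters were compared to see whether Chat stood apart from them. Of 3 vesicular glutamate transporters, 2 were at least 2-fold lower, both of which reached 1 FPKM in Hb9 control MNs alone, with Slc17a8 at 10.8 and 0.107 FPKM (log2 ratio -6.66), Slc17a6 at 2.01 and 0.239 FPKM (-3.08) and Slc17a7 at 6.03 and 7.81 FPKM (0.37). Of 6 GABA and glycine genes, 5 were at least 2-fold lower (median -4.51), 4 of which reached 1 FPKM in Hb9 control MNs alone. Among them the vesicular transporter Slc32a1 was at 5.73 and 0.256 FPKM (-4.49), while the glycine transporter Slc6a9 was at 24.1 and 19.6 FPKM (-0.30). Of 7 monoamine and histamine genes at 1 FPKM or more, 4 were at least 2-fold lower and 1 at least 2-fold higher (median -2.28), while 1 reached 1 FPKM in Hb9 control MNs alone and 2 in A2 SMA MNs alone. Tyrosine hydroxylase (Th) was at 39.1 and 1.36 FPKM (-4.85), aromatic amino acid decarboxylase (Ddc) at 117 and 24.0 FPKM (-2.28) and the vesicular monoamine transporter Slc18a2 at 26.9 and 1.48 FPKM (-4.18). Ratios as low as that of Chat were therefore not particular to the cholinergic genes, as the values of Slc17a8 show.

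**Figure D5:**
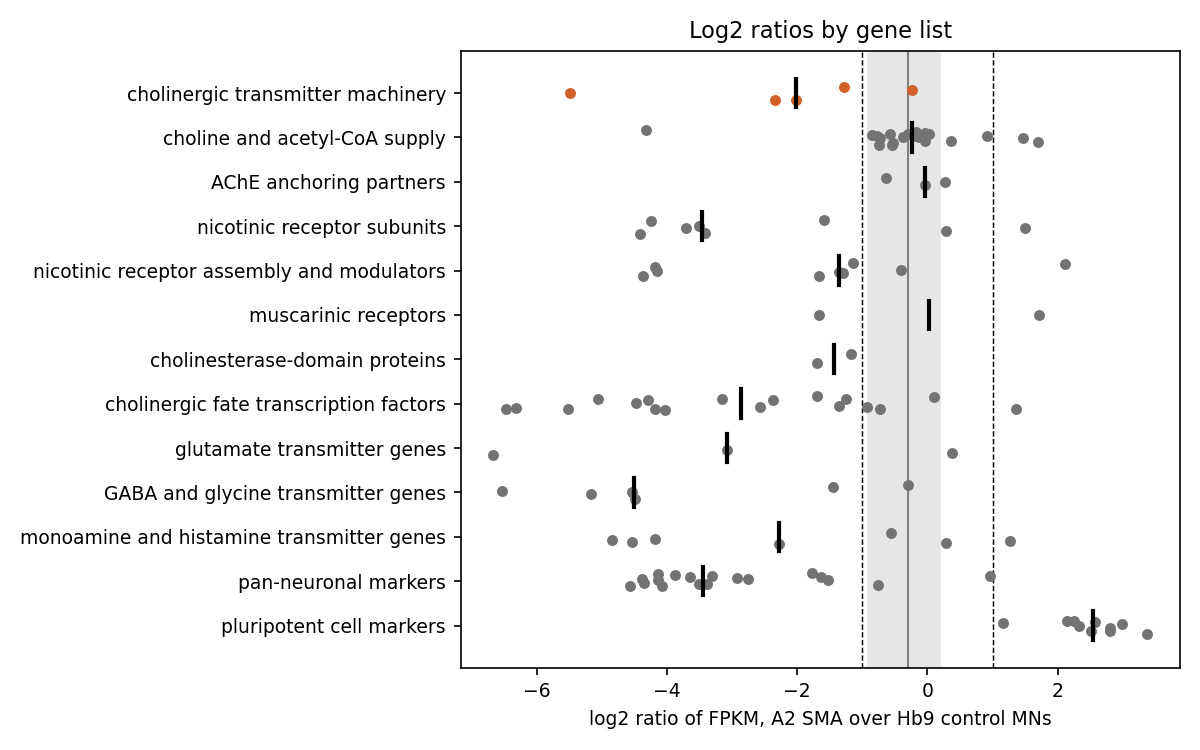
Log2 ratio (A2 SMA over Hb9 control) of each gene at 1 FPKM or more in either genotype and above 0 in both, by list, with the cholinergic transmitter machinery in the top row. Black bars are list medians, the grey line and band are the median and quartiles of all 15548 entries, and the dashed lines mark 2-fold. Choline and acetyl-CoA supply genes lie mostly in the band, while the other transmitter lists lie mostly to its left.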

How the data were processed

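Live eGFP-positive MNs of 2 mESC lines were profiled by single-end RNA-Seq in 3 samples per genotype. Read quality control by the authors used FastQC 0.10.1, followed by adapter removal (CutAdapt) and alignment to NCBI m37 and its Ensembl genes (TopHat 2.04). The deposited FPKM values, 1 per gene and genotype, came from Cufflinks and Cuffdiff. Columns of the authors' own comparison (log2 fold change, test statistic, p, q and its call) were not used. The table gives neither read numbers nor values of single samples.

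Symbols were split where an entry lists several, and log2 ratios were formed without a pseudocount with Python 3.11.15, numpy 2.4.6 and pandas 2.3.3 (matplotlib 3.10.9 for figures). An entry was counted at a 2-fold difference with 1 FPKM or more in either genotype and above 0 in both. The row choice and calls were tested on simulated data. Genes named from each list were at most the 3 with the highest FPKM, together with Smn1, Mnx1 and the 3 nearest entries of each gene. Some genes that this rule names are not reported here, and other genes were named after their values were seen, as the text says at each. The genes and the 19 lists were chosen with earlier results of these data known. Spans are those of NCBI m37. Promoter windows and gene models are of GRCm38 and were used only for sequence and gene order, since the builds differ. Alternatives were pseudocounts of 0.1 and 1 FPKM, 2 scalings, summed entries, other FPKM limits, status OK alone, a 4-fold limit and, chosen after seeing the data, entries with 1 symbol only.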

Additional observations from a re-analysis of the deposited data

How the results depend on the processing

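Under every alternative run, 3 to 5 genes were counted as lower and 0 as higher, at 2-fold or, in 1 alternative, at 4-fold. The median log2 ratio stayed between -2.34 and -1.56. The count was 3 of 5 genes with a pseudocount of 1 FPKM (17.5% of all entries), with either scaling (16.6%) and at 4-fold (9.04%). It was 3 of 4 with a limit of 5 FPKM (20.2%) and 3 of 3 over entries with 1 symbol only (22.8%, chosen after seeing the data). With no filter on low values, where Slc5a7 entered, it was 5 of 6 (24.8%). Bche lost its call under both scalings and with a pseudocount of 1 FPKM (log2 ratio -0.98 in each), and Colq turned from -0.24 to 0.05. A pseudocount of 1 FPKM moved Chat to -3.62, Prima1 to -1.56 and Slc5a7 to -0.35, and one of 0.1 FPKM moved Slc5a7 to -1.36. This follows from the construction of a pseudocount, which draws ratios of low values towards 0. No paired analysis was possible because the table holds 1 pooled value per genotype, and leaving out single replicates was not possible for the same reason. The number of reads behind each value of a gene is unknown, so no limit from counting error can be given.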

Other observations

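All 6 floor plate markers were at least 2-fold lower in A2 SMA MNs (summed level 727 FPKM in the control line and 103.5 FPKM in the A2 line), led by Ntn1, an axon guidance cue (383 and 48.5 FPKM; status FAIL). Of 7 neural progenitor markers, 5 were at least 2-fold lower, with Fabp7, a radial glia protein gene, at 553 and 5.52 FPKM. Sox2, which progenitors share with pluripotent cells, was at 179 and 197 FPKM. Among the 7, 1 reached 1 FPKM in Hb9 control MNs alone, which fixed its direction as lower. Of 8 fibroblast markers, the lineage of the feeder layer, 5 were at least 2-fold lower and 1 higher. Relative to the median entry 2 were lower and 1 higher. Among the 8, 2 reached 1 FPKM in Hb9 control MNs alone and 1 in A2 SMA MNs alone, which fixed their directions. Over all 15548 entries, 22.7% were at least 2-fold lower and 6.93% at least 2-fold higher. Relative to the median entry these shares were 16.6% and 10.6%. Of 5 endoderm markers at 1 FPKM or more, 1 was at least 2-fold lower, and 0 were relative to the median entry. Among the 5, 1 reached 1 FPKM in A2 SMA MNs alone, which fixed its direction as higher, and it lay within 2-fold. Of 3 erythroid and megakaryocyte markers at 1 FPKM or more, 1 was at least 2-fold higher (Gata1). Gata1 reached 1 FPKM in A2 SMA MNs alone, which fixed its direction as higher.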
